A study of Mus musculus with 6 samples.

Results

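The genes described here are the intronless protein-coding genes of mouse CD4+ T cells, that is, genes for which no annotated transcript is spliced. They were selected on the GENCODE vM21 annotation (GRCm38): autosomal protein-coding genes of which every transcript has 1 exon, with symbols starting with Hist left out and a mean level of at least 0.5 TPM (a level scaled by transcript length and library depth) over all 6 libraries. This gave 157 members of 55177 annotated genes in the data and of 1085 intronless autosomal coding genes at any level. The level rule used the mean over both genotypes, so a gene that is high in 1 group could pass through that group alone. Among the tested members, 4 were under 0.5 TPM on average in WT, none of them called, and 4 were under it in Wtap KO, of which Mars2, 9130023H24Rik and 4930426L09Rik are counted among the falls below. Of the 157 members, 153 held enough counts to be tested, whereas Gm10226, Gm11273, Gm21060 and Gm6020 did not. Just above the limit were Fam43a at a mean of 0.509 TPM and Map10 at 0.532 TPM, and just below it were 4930518I15Rik at 0.492 TPM and Sox4 at 0.494 TPM.

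The RNA libraries, of CD4+ T cells from C57BL/6J mice, are titled WT1 to WT3 and iKO1 to iKO3. They are named here as 3 wild-type (WT) and 3 Wtap knockout (Wtap KO) libraries. The protocol, which is the same text for both groups, lists 4-OH-tamoxifen at 1 µM for 24 h, then anti-CD3 and anti-CD28 in Th1 conditions (IL-12 at 10 ng/mL with an antibody to IL-4) for 40 to 48 h, then IL-2 at 200 IU/mL, with harvest on day 4. The labels state neither whether WT cells carried Cre, nor its promoter, nor the part of Wtap removed, nor the age of the mice, nor separate animals per library. A p-value here therefore covers only the spread between libraries, which may be technical in part. Libraries held 32363139 to 44039467 estimated counts. Wtap RNA was at 51.2, 48.7 and 42.0 TPM in WT and 58.8, 58.1 and 61.5 TPM in Wtap KO and was not called (0.16 ± 0.10 (SE) on the log2 scale, edgeR adjusted p = 0.371), so total Wtap does not check the deletion. Its transcript Wtap-205 was at 27.0, 22.9 and 18.2 TPM in WT and 5.14, 5.50 and 4.63 TPM in Wtap KO. Wtap-201 went the other way, from 16.2, 17.8 and 18.7 to 35.4, 38.2 and 41.3 TPM, and Wtap-203 was at 0 to 0.236 TPM in WT and 8.31 to 11.4 TPM in Wtap KO. The library Wtap KO 3 stood apart in sex-linked RNA, with Xist at 0.297 TPM against 172 to 298 TPM in the others. Kdm5d, on the Y chromosome, was at 14.0 TPM there and 0.376 to 0.625 TPM in the others, so that the pattern of Wtap KO 3 was male and theirs female. The Wtap KO libraries thus did not all come from the same animal, and the number of animals is not stated. CD4 T cell markers were present in every library (summed 2983 to 3215 TPM in WT and 2347 to 2538 TPM in Wtap KO), with Cd3g and Cd4 lower in Wtap KO. Among markers of other cells, the CD8 pair summed to 7.18 to 7.79 TPM in WT and 11.4 to 13.9 TPM in Wtap KO, with Cd8b1 called higher. The B, NK, macrophage, dendritic, granulocyte and erythroid lists each summed to at most 8.22 TPM in a library. They held no called gene, beside 9.23% of all genes tested. Median log2 fold changes were 0.42, 1.04, 0.615 and 0.66 in the B, NK, macrophage and dendritic lists (3, 2, 1 and 4 genes tested). They were -0.11 in the erythroid and -0.33 in the CD4 T cell list. NK sums were 0.536 to 1.61 TPM in WT and 1.73 to 2.91 TPM in Wtap KO. Dendritic and granulocyte sums were also higher without overlap, and the rest overlapped.

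Wtap helps hold together the nuclear enzyme complex that writes N6-methyladenosine (m6A) into mRNA, a mark that readers such as Ythdf2 couple to faster decay. Splicing leaves exon junction complexes on mRNA, and these keep the writer away from nearby sequence, so that in spliced mRNAs the mark gathers in long internal exons, last exons and around stop codons. An mRNA made without splicing carries no such complexes along its body, and it must also leave the nucleus by routes that do not lean on splicing. The writer prefers an adenosine in the context GGAC, most of all GGACT. No methylation was analysed here, so the values below are RNA levels only.

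The coding stretches around the first GGACT, or the first GGAC where the coding sequence holds no GGACT, are shown for the 3 largest falls and the 3 largest rises among called members with at least 3 TPM in the higher group, because these members carry the main contrast below. Capitals mark that motif, in reading direction on the transcript strand, and further copies are left in lower case. The sequences come from the GENCODE vM21 transcripts (GRCm38). The positions are chr2:125673200-125673298, plus strand, for Eid1, chr19:28964001-28964067, plus strand, for Plpp6 and chr9:44334762-44334818, plus strand, for H2afx. For the risers they are chr2:25706926-25707018, plus strand, for Bmyc, chr12:83950841-83950940, plus strand, for Riox1 and chr4:95051048-95051146, minus strand, for Jun.
Eid1: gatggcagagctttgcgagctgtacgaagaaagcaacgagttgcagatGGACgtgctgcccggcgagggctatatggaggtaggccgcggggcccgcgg
Plpp6: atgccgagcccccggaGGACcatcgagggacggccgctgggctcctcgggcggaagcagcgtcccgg
H2afx: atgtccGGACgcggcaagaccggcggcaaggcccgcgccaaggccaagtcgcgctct
Bmyc: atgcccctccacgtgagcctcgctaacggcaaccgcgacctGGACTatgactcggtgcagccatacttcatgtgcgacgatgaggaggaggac
Riox1: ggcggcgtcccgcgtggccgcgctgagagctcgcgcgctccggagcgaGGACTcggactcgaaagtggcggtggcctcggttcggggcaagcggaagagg
Jun: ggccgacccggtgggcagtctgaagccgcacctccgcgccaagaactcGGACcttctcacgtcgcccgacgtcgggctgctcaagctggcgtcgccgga
The Eid1, Plpp6, H2afx and Jun coding sequences held no GGACT, with 3, 7, 1 and 1 copies of GGAC. In Bmyc there were 2 copies of GGACT and in Riox1 there were 5. A match is a description of the letters and not a methylated site.

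Intronless genes were called lower in Wtap KO more often than genes in general. Of the 153 tested members, 29 were lower, 5 were higher and 119 were not called in edgeR's quasi-likelihood test at an adjusted p of 0.05. That is 19.0% lower and 3.27% higher, beside 3.49% lower and 5.75% higher of all 17610 genes tested (9.23% called in either direction). Among 8930 multi-exon autosomal coding genes of the same level rule, with no annotated single-exon transcript, 3.84% were lower and 7.63% were higher. The difference in shares itself was not tested, and for the few rises its direction turned with no filter on low counts (3.82% of members and 3.51% of all genes higher). Of the 29 falls, 26 had both group means at 0.5 TPM or more, and among the 130 members tested with a mean of at least 1 TPM 25 were lower and 5 higher. Fewer cells of a type and less RNA per cell cannot be told apart in bulk RNA.

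The middle of the members moved little. Their median log2 fold change was -0.08, beside -0.00 over all genes tested and 0.01 over multi-exon genes, and 87 of 153 members were below 0. Called falls ranged from -1.70 for Fv1 to -0.46 for Cstf2t, and called rises from 0.58 for Jun to 0.88 for Cebpb. Members that were not called spread from -1.21 to 1.68. The groups' libraries did not overlap for 41 members that were lower and 24 that were higher in Wtap KO, and this held for 15.5% and 17.2% of all genes tested. All 34 called members were among them.

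The number of calls depended on single libraries, but the lean towards falls did not turn in the fits that left out 1 library each. Calls numbered 0 higher and 15 lower without WT 2, 0 higher and 13 lower without Wtap KO 1, 1 higher and 13 lower without Wtap KO 2, and 2 higher and 18 lower without Wtap KO 3, the library with little Xist. The share of members called lower was then 8.44% to 11.7%, beside 0.54% to 1.26% of all genes. Of the 34 called members, 12 were called in each of the 6 such fits, and all 12 were falls: Eid1, Plpp6, H2afx, Rap2b, Tspyl3, Tspyl1, Lpar6, Wdr5b, Mars2, Fv1, Jrkl and Gm42372. With all 6 libraries, 21 of the 34 calls held in each of 11 other tests or scalings and 13 were lost in at least 1. Lost with limma on log2(TPM + 1) were 11: AL732309.1, Jun, Hnrnpa0, Sap18b, Sft2d3, Pigm, Cstf2t, Cebpb, 2310039H08Rik, Galnt4 and Inafm1. The remaining 2 of the 13, 4930426L09Rik and Fancf, were lost with limma on log2(TPM + 0.1).

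**Figure D1:**
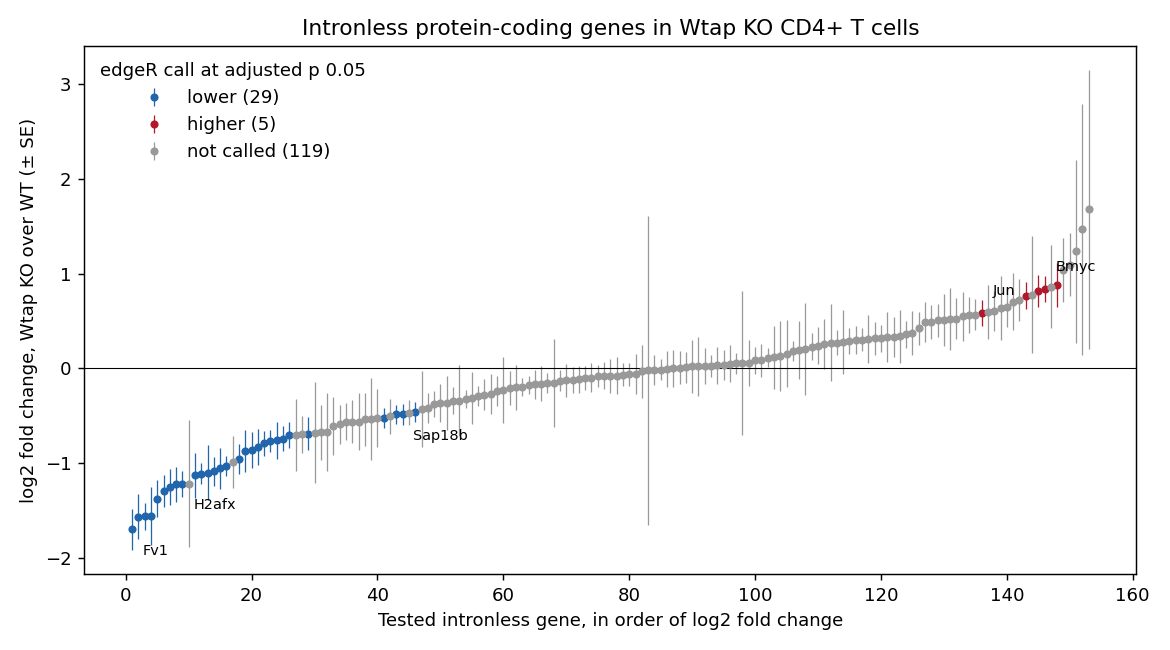
Log2 fold change of Wtap KO over WT (y axis, with SE bars) of the 153 tested intronless genes, ordered by fold change along the x axis and coloured by edgeR call. The 29 called falls reach -1.70 at Fv1 and the 5 called rises stay below 0.89, while the 119 genes that were not called span both sides of 0.

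Eid1 and H2afx, which act in transcription and chromatin, were both lower in Wtap KO. Eid1 (ENSMUSG00000091337, chr2:125673095-125674785, plus strand) encodes an inhibitor of differentiation that binds the retinoblastoma protein and the acetyltransferase p300. It was at 20.01, 11.5 and 10.3 TPM in WT and 4.54, 4.72 and 5.37 TPM in Wtap KO. The 3 Wtap KO libraries were close together and all below the lowest WT library, while WT 1 was high. The means were 14.0 ± 5.28 TPM (SD, n = 3) and 4.88 ± 0.436 TPM, with a log2 fold change of -1.56 ± 0.24 (SE) and an edgeR adjusted p of 0.00727. H2afx (ENSMUSG00000049932, chr9:44334694-44336077, plus strand) encodes the histone variant that is phosphorylated around DNA breaks. Its level was 56.1, 61.8 and 72.8 TPM in WT and 31.2, 26.8 and 27.1 TPM in Wtap KO, so that the highest Wtap KO library lay well below the lowest WT library. The log2 fold change was -1.22 ± 0.14 (SE), with an edgeR adjusted p of 0.00229. A miRNA model on the opposite strand of H2afx, Gm44335, was lower too (-1.67 on the log2 scale, edgeR adjusted p = 0.0438), and the strand setting of the counting is not stated.

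The pair Tspyl1 and Tspyl3, of the nucleosome assembly protein family, fell by like amounts. Tspyl1 (ENSMUSG00000047514, chr10:34282190-34285275, plus strand) was at 27.6, 27.8 and 30.6 TPM in WT and 15.1, 13.3 and 15.4 TPM in Wtap KO. That is a log2 fold change of -1.03 ± 0.11 (SE; edgeR adjusted p = 0.00177), with all Wtap KO libraries near the same level. Tspyl3 (ENSMUSG00000074671, chr2:153222370-153225441, minus strand) was at 9.35, 10.5 and 7.82 TPM in WT and 5.04, 4.55 and 3.90 TPM in Wtap KO, with a log2 fold change of -1.09 ± 0.15 (SE; edgeR adjusted p = 0.00562). Of the 2 genes Tspyl1 was the more abundant, and neither pair of groups overlapped. Purb, which binds purine-rich single strands, was at 19.4, 19.1 and 20.1 TPM in WT and 11.0, 10.6 and 14.9 TPM in Wtap KO (-0.74 ± 0.13 on the log2 scale, edgeR adjusted p = 0.0132). Hnrnpa0, an RNA-binding protein of the hnRNP family, was at 36.5, 32.8 and 31.9 TPM in WT and 24.9, 24.7 and 25.3 TPM in Wtap KO (-0.48 ± 0.10 on the log2 scale, edgeR adjusted p = 0.0194). Purb was not called without Wtap KO 1 or Wtap KO 2 (adjusted p up to 0.0771). Hnrnpa0 was not called without WT 2 or any 1 of the Wtap KO libraries (adjusted p up to 0.101), nor in other settings that included limma (up to 0.0608). In the group of other transcription factors and cofactors, defined by symbol, 3 of 8 members fell (Eid1, Purb and Hnrnpa0) and none was called higher, beside 3.49% lower and 5.75% higher of all genes. H2afx, Tspyl1, Tspyl3 and Ccnq lie outside this group of 8. The Eid1 relatives Eid2 (0.24) and Eid2b (-0.20, both log2 fold changes) were not called.

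Ccnq (ENSMUSG00000049489, chr11:78750506-78751729, minus strand), a cyclin that partners the kinase Cdk10, was at 19.2, 21.4 and 22.6 TPM in WT and 12.5, 11.9 and 13.5 TPM in Wtap KO. Every Wtap KO library was below every WT library, with a log2 fold change of -0.79 ± 0.13 (SE) and an edgeR adjusted p of 0.00986. The call was lost without Wtap KO 1 or Wtap KO 2 (adjusted p up to 0.0675).

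In signalling, the named falls were an enzyme, a small GTPase and a receptor. Plpp6 (ENSMUSG00000040105, chr19:28963953-28966811, plus strand), a phosphatase of isoprenoid diphosphates, was at 9.19, 10.4 and 9.31 TPM in WT and 3.25, 2.97 and 3.96 TPM in Wtap KO. It had the smallest adjusted p of all members (-1.56 ± 0.14 (SE) on the log2 scale, edgeR adjusted p = 0.00114), and its WT and Wtap KO libraries formed groups far apart. Rap2b (ENSMUSG00000036894, chr3:61361638-61368430, plus strand), a Ras-family GTPase, was at 5.73, 5.96 and 5.36 TPM in WT and 2.67, 2.63 and 2.90 TPM in Wtap KO. Within each group the libraries were almost level (-1.11 ± 0.11 (SE) on the log2 scale, edgeR adjusted p = 0.00156). Only 42.2% of the 31-base words of Rap2b occur in no other gene's transcripts, and its antisense neighbour Gm37696, at a mean of 0.401 TPM, was also lower (-1.53 on the log2 scale, edgeR adjusted p = 0.0105). Lpar6 (ENSMUSG00000033446, chr14:73237895-73243294, plus strand), a receptor for lysophosphatidic acid whose exon overlaps Rb1 on the other strand, was at 10.1, 8.77 and 8.91 TPM in WT and 5.24, 5.74 and 5.93 TPM in Wtap KO. The groups were apart (-0.77 ± 0.11 (SE) on the log2 scale, edgeR adjusted p = 0.00663), and Rb1 was not called (-0.38, adjusted p = 0.109). Lpar6 was the 1 called gene among 6 G protein-coupled receptors, beside 9.23% of all genes tested called in either direction. S1pr4, a sphingosine-1-phosphate receptor of lymphocytes, was at 42.6, 58.5 and 72.2 TPM in WT and 66.7, 52.6 and 60.7 TPM in Wtap KO, and the groups overlapped. Gpr15, a homing receptor, was at 1.91, 4.60 and 2.22 TPM in WT and 4.92, 5.50 and 3.52 TPM in Wtap KO and was not called (edgeR adjusted p = 0.273). The other small GTPase, Rhob, had a log2 fold change of 0.65 and was not called (adjusted p = 0.0883).

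The remaining members among the 10 largest falls were gene models without an assigned name. 1110032F04Rik (ENSMUSG00000046999, chr3:68869586-68872163, plus strand) was at 6.60, 5.03 and 4.35 TPM in WT and 2.38, 2.14 and 3.45 TPM in Wtap KO (-1.05 ± 0.21 on the log2 scale, edgeR adjusted p = 0.0210). The groups did not overlap, but the call was lost without Wtap KO 1, Wtap KO 2 or WT 2 (adjusted p up to 0.108). AL732309.1 (ENSMUSG00000115018, chr2:25244819-25246863, minus strand) was at 3.82, 4.81 and 4.74 TPM in WT and 2.45, 2.29 and 3.47 TPM in Wtap KO (-0.76 ± 0.20 on the log2 scale, edgeR adjusted p = 0.0470). It overlaps exons of Ndor1 on the same strand and only 0.099% of its words are its own, so the split of reads between the 2 genes is uncertain. Its call was lost without Wtap KO 1, Wtap KO 2, WT 2 or WT 3 (adjusted p up to 0.191), and in other settings that included limma and length-scaled counts (up to 0.0864).

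Below 3 TPM in both groups, 12 more members fell, Fv1 further than any of those above. The names in what follows were taken after the values were seen. Fv1, a restriction gene against murine leukaemia viruses that derives from an old retroviral gag gene, was at 2.88, 2.82 and 2.70 TPM in WT and 1.00, 0.686 and 1.00 TPM in Wtap KO (-1.70 ± 0.22 on the log2 scale, edgeR adjusted p = 0.00397). Jrkl, a gene related to jerky, was at 2.00, 1.91 and 1.87 TPM in WT and 0.715, 0.844 and 1.00 TPM in Wtap KO (-1.22 on the log2 scale, edgeR adjusted p = 0.00727). Mars2, the mitochondrial methionyl-tRNA synthetase, was at 0.909, 1.12 and 1.15 TPM in WT and 0.414, 0.403 and 0.529 TPM in Wtap KO (-1.29 on the log2 scale, edgeR adjusted p = 0.00447). In all 3 genes each Wtap KO library was far below each WT library, and each was called whichever 1 library was left out. Mars2, at a mean of 0.449 TPM in Wtap KO, is a member only through its WT level. Other called falls were Dolk (dolichol kinase) at -1.13, Galnt4 (which starts mucin-type O-glycans) at -0.71 and Pigm (a mannosyltransferase of the GPI anchor) at -0.52, all log2 fold changes, the last 2 at over 3 TPM. Fancf, a subunit of the Fanconi anaemia core complex, had a log2 fold change of -0.83. Calls of Dolk, Galnt4 and Fancf were lost without WT 2 or any 1 of the Wtap KO libraries (adjusted p up to 0.116, 0.107 and 0.142), and that of Pigm without Wtap KO 1, Wtap KO 2 or WT 2 (up to 0.131). The 4 members of the group of glycan and sulfate transferases as defined by symbol (Mgat2, B3galt4, B3galt6 and Fut4) were not called. Mgat2 was at 18.9, 21.0 and 20.4 TPM in WT and 20.1, 19.3 and 22.8 TPM in Wtap KO. B3galt4 was at 5.99, 9.06 and 10.4 TPM in WT and 13.5, 11.1 and 12.5 TPM in Wtap KO (0.49 on the log2 scale, edgeR adjusted p = 0.179).

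The 5 rises comprised early response factors and proteins of growth and genome upkeep. Bmyc (ENSMUSG00000049086, chr2:25706739-25707721, plus strand), a Myc family member without the DNA-binding end, was at 11.8, 10.5 and 10.1 TPM in WT and 22.5, 17.5 and 20.1 TPM in Wtap KO. All Wtap KO libraries were above all WT libraries (0.84 ± 0.14 (SE) on the log2 scale, edgeR adjusted p = 0.0102). Riox1 (ENSMUSG00000046791, chr12:83950608-83952951, plus strand), an oxygenase of ribosomal protein and histone residues, was at 2.21, 3.09 and 2.76 TPM in WT and 5.06, 4.55 and 5.13 TPM in Wtap KO (0.82 ± 0.17 on the log2 scale, edgeR adjusted p = 0.0210). Jun (ENSMUSG00000052684, chr4:95049034-95052222, minus strand), the AP-1 subunit, was at 2.52, 2.90 and 2.73 TPM in WT and 4.49, 3.76 and 4.45 TPM in Wtap KO (0.58 ± 0.14 on the log2 scale, edgeR adjusted p = 0.0351). The groups were apart in all 3 genes, yet none kept its call in every fit with 1 library left out. Bmyc was not called without WT 2 or Wtap KO 1 (adjusted p up to 0.0597), and Riox1 and Jun were not called without WT 2 or any 1 of the Wtap KO libraries (up to 0.0951 and 0.146). Jun was also not called in 4 of the 11 other settings, limma included (up to 0.0805). Nsmce3, a subunit of the SMC5/6 complex, had a log2 fold change of 0.76 (edgeR adjusted p = 0.0161, up to 0.0807 without Wtap KO 1, Wtap KO 2 or WT 2). Cebpb, a bZIP factor, had one of 0.88 (edgeR adjusted p = 0.0478) and was not called when any 1 library was left out (adjusted p from 0.0529 to 0.194). On the opposite strand, Riox1 overlaps Gm26571 (mean 2.1 TPM, log2 fold change 0.69) and Jun overlaps Junos (1.27 TPM, 0.53). Cebpb overlaps Tmem189 (20.3 TPM, -0.07) and Bmyc overlaps A230005M16Rik (0.0382 TPM). None of these neighbours was called, and the strand setting of the counting is not stated.

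**Figure D2:**
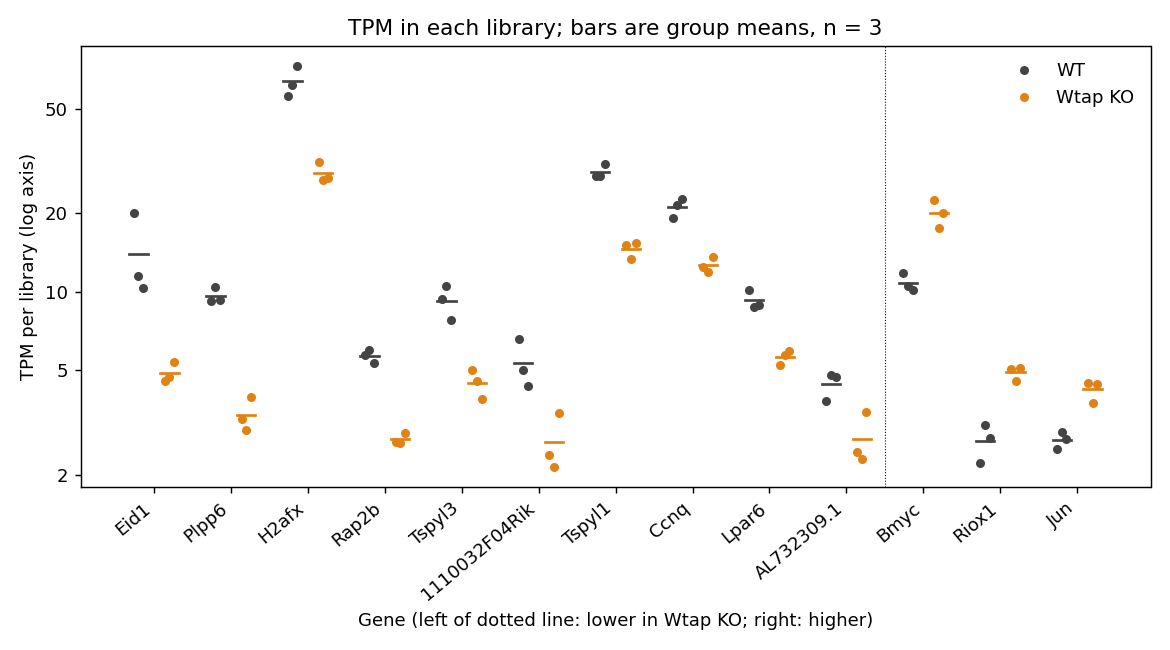
TPM in each of 3 WT and 3 Wtap KO libraries (points, log y axis) with group means (bars) for the 10 named falls and 3 named rises on the x axis. In all 13 genes the 2 groups lie apart. H2afx was at 56.1 to 72.8 TPM in WT and Jun at 2.52 to 2.90 TPM.

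Of 6 immediate early and bZIP factors, Jun and Cebpb rose, none fell and the median log2 fold change was 0.41, beside 5.75% higher of all genes and a median of -0.00. In this group 5 of 6 have a GC content of 55% or more, and with an offset for GC content the median was 0.12, Jun was called (0.46 on the log2 scale, adjusted p = 0.0404) and Cebpb was not (0.56, adjusted p = 0.162). Jund, the most abundant, was at 65.6, 82.8 and 83.6 TPM in WT and 138, 112 and 87.7 TPM in Wtap KO and was not called (edgeR adjusted p = 0.124). Ier2 was at 13.8, 16.3 and 21.1 TPM in WT and 19.1, 15.3 and 16.1 TPM in Wtap KO, with the groups overlapping (log2 fold change -0.08, or -0.28 with the GC offset). Early response genes that are spliced also rose in part: Egr1, Egr2 and Egr3 among 11 tested, with none lower and a median of 0.73. Rises were thus called on both sides of the split by splicing, and the difference between the sides was not tested.

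Members of the groups of ubiquitin ligases and related genes and of zinc finger, BTB and kelch proteins mostly missed the threshold. Of all genes tested, 3.49% passed it as lower and 5.75% as higher. Among 4 zinc finger, BTB and kelch members, Kbtbd7, a cullin adaptor, fell (-0.96 on the log2 scale, edgeR adjusted p = 0.0109, or 0.0658 without Wtap KO 1). Klhl9 was at 14.7, 11.7 and 14.4 TPM in WT and 10.0, 9.98 and 12.7 TPM in Wtap KO (edgeR adjusted p = 0.127), and Zfp830 had a log2 fold change of -0.07. None of the 3 members of the group of ubiquitin ligases and related genes, defined by symbol, was called. Their log2 fold changes were 0.30 for Rnf113a2, -0.20 for Fbxl14 and -0.51 for Otud1. Rnf113a2 was at 21.2, 18.7 and 16.3 TPM in WT and 23.4, 24.8 and 23.5 TPM in Wtap KO, without overlap (edgeR adjusted p = 0.160). Pcbp1, a poly(C)-binding protein, was at 137, 133 and 153 TPM in WT and 160, 151 and 145 TPM in Wtap KO.

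Among the 119 members that were not called, the libraries of the groups did not overlap for 12 that were lower and 19 that were higher in Wtap KO. Over all genes tested, called ones included, the shares without overlap were 15.5% lower and 17.2% higher. The examples that follow were picked after their values were seen. Haspin, the kinase of histone H3 in mitosis, was at 7.20, 6.69 and 7.47 TPM in WT and 4.99, 5.15 and 5.91 TPM in Wtap KO (-0.47 on the log2 scale, edgeR adjusted p = 0.0570). Rraga, a Rag GTPase of amino acid sensing, was at 29.8, 28.7 and 28.9 TPM in WT and 24.1, 23.5 and 24.8 TPM in Wtap KO (-0.32 on the log2 scale, edgeR adjusted p = 0.0730). In both genes the step between groups was larger than the spread within them, yet the test was missed. Hps6, of a complex for lysosome-related organelles, was at 1.64, 1.82 and 1.94 TPM in WT and 3.11, 2.56 and 2.65 TPM in Wtap KO (0.57 on the log2 scale, edgeR adjusted p = 0.0667). Kcna3, the potassium channel of T cells, was at 10.4, 14.8 and 16.7 TPM in WT and 9.98, 8.36 and 11.2 TPM in Wtap KO, and WT 1 lay among the Wtap KO libraries (edgeR adjusted p = 0.106). Imp3, a subunit of the ribosome-making U3 particle, was at 42.0, 45.7 and 46.6 TPM in WT and 42.5, 42.6 and 42.1 TPM in Wtap KO, with overlap.

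The most abundant members were retrocopies or short models that share most of their sequence with other genes. Retrocopies and unnamed models made up 46 members, of which 6 of 42 tested fell and none was called higher (median log2 fold change -0.09). That is 14.3% lower, beside 3.49% lower and 5.75% higher of all genes tested. The group was defined by symbol. Its falls were 9130023H24Rik, Gm42372, 4930426L09Rik, 2310039H08Rik, 1110032F04Rik and AL732309.1. From 74.45% to 100% of their words were their own, except in AL732309.1 with 0.099%, so most of these falls were not in shared sequence. Rps12-ps3 was at 5838, 4404 and 5638 TPM in WT and 4473, 5278 and 5801 TPM in Wtap KO. Gm11808 was at 3064, 3535 and 3875 TPM in WT and 4019, 3936 and 3555 TPM in Wtap KO. With Rpl10-ps3, Gm2000, Gm10131 and Gm10181 these 6 held 86.8% to 89.4% of the TPM of all members, and no more than 9.64% of the words of any of them were its own. Reads of such sequences can seldom be assigned to 1 gene, and none of the 6 was called. Gm10181, a model of 69 bases, ran from 0 to 439 TPM between WT libraries and from 0 to 546 TPM between Wtap KO libraries. The model Gm37419, of 114 bases, was at 24.5, 36.3 and 28.6 TPM in WT and 17.9, 20.2 and 28.1 TPM in Wtap KO, and 0610012G03Rik had a log2 fold change of 0.01.

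Among members whose sequence is mostly their own, the lean to falls was larger. Of 98 members with at least 80% unique 31-base words, 24 fell and 3 rose (24.5% and 3.06%, median log2 fold change -0.12). Their summed level was 936, 985 and 1032 TPM in WT and 927, 858 and 902 TPM in Wtap KO. Of 24 members with under 20% unique words, 2 fell (Sap18b and AL732309.1) and none was called higher. That is 8.33% lower, beside 3.49% lower and 5.75% higher of all genes tested. Leaving out members that overlap an exon of another gene kept 17 falls and 1 rise among 108 tested, and leaving out those inside any other gene kept 14 falls and no rise among 90. These 2 subsets held 15.7% and 15.6% falls, beside 3.49% of all genes, while 4 of the 5 called rises overlapped an exon on the opposite strand. Stray reads were gauged by olfactory, vomeronasal and taste receptor genes outside the members. Their sum was 378, 420 and 348 TPM in WT and 261, 234 and 271 TPM in Wtap KO, without overlap, of which the spliced Olfr1033 alone made up 213 to 263 TPM in WT and 90.9 to 117 TPM in Wtap KO. The 206 single-exon genes among them, a split chosen after seeing the data, summed to 0.692 to 0.861 TPM in WT and 0.639 to 0.914 TPM in Wtap KO, so that their groups overlapped. The part of these reads in the falls was not tested.

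Next, each member was set beside multi-exon coding genes within 1.2-fold of its length and 3 percentage points of its GC content. These were all such autosomal genes with a mean of at least 0.5 TPM and no annotated single-exon transcript. Such a window with at least 20 genes existed for 142 members and held a median of 336.5 genes. The median difference between a member's log2 fold change and that of its window was -0.10, and 84 of 142 members lay below their window. Of these 142 members 19.0% were lower and 2.82% higher, beside a mean of 3.33% lower and 8.21% higher over the windows. The difference was -0.15 with windows of 1.1-fold and 1 point, -0.07 with 1.5-fold and 5 points and -0.14 with level within 2-fold as well.

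GC content moved with the response of members and of multi-exon genes alike. Among members under 50% GC, 19 of 67 fell and 1 rose, beside 5.38% lower of multi-exon genes in that range. From 50% to 55% GC, 4 of 34 fell, and at 55% or more 6 of 52 fell and 4 rose, beside 3.20% and 1.59% lower of multi-exon genes. The share of falls in members was thus above that of multi-exon genes in all 3 ranges, but the medians were not ordered alike. Under 50% GC the median log2 fold change was -0.20 in members and -0.08 in multi-exon genes. From 50% to 55% it was -0.07 and 0.06. At 55% or more it was higher in members, at 0.26 and 0.13, and 20 of 52 members were below 0. Multi-exon genes of 55% GC or more also moved by library, with median deviations from the mean of all 6 libraries of -0.25, -0.07 and 0.11 on the log2 scale in WT 1, WT 2 and WT 3 and 0.17, 0.06 and -0.02 in Wtap KO. With an offset for GC content fitted per library, 35 members were lower and 4 higher, beside 6.04% lower and 6.66% higher of all genes.

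**Figure D3:**
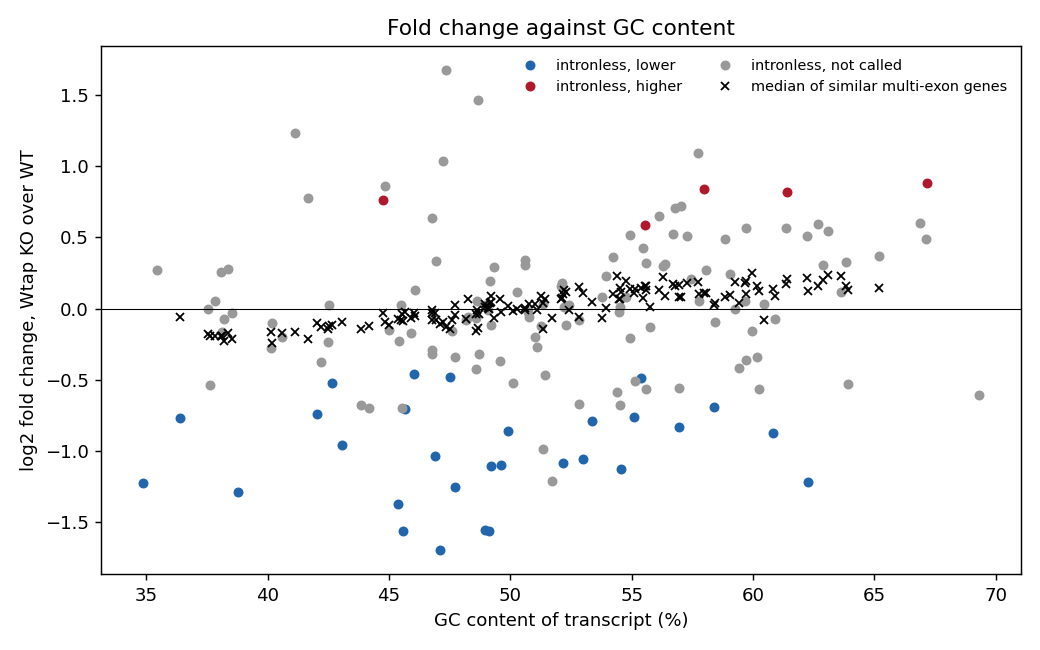
Log2 fold change of Wtap KO over WT (y axis) against GC content of the transcript in percent (x axis) for tested intronless genes, coloured by edgeR call, with crosses for the median of multi-exon genes of similar length and GC. The crosses climb from below 0 to above 0 with GC, between -0.24 and 0.25, and 84 of 142 members with a window lie below their cross.

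Falls were more frequent among long members. At 3000 bases or more 13 of 38 members fell and 2 rose (34.2% lower, beside 2.95% of multi-exon genes of that length). Between 1500 and 3000 bases 16.1% fell, beside 3.88%, and under 1500 bases 11.3% fell, beside 4.56%. The share of falls thus grew with length in members and shrank with it in multi-exon genes, and the difference in trend was not tested. Much of the length lay after the coding sequence: the stretch from the stop codon to the end had a median of 1520 bases in fallen members, 568.5 in those not called and 509 in the 5 risen ones. Level made less difference, with 22.9% lower under 2 TPM, 17.7% from 2 to 10 TPM and 16.3% at 10 TPM or more. In multi-exon genes these shares were 1.83%, 2.08% and 5.37%. Length also sets the counts behind a TPM value, and its part in the calls was not tested.

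Motif density in the coding sequence did not order the members by call in the same way for GGAC and GGACT. Only the transcript strand was searched, each GGACT counts as a GGAC too, and 156 members had a coding sequence to search. Members held 5.77 GGAC and 1.26 GGACT per kb, and 7699 multi-exon genes 4.97 and 1.17 per kb. By call, GGAC stood at 5.27 per kb in fallen, 5.84 in uncalled and 7.53 in risen members, and GGACT at 1.23, 1.22 and 2.38 per kb. At least 1 GGACT was found in 58.3% of member coding sequences and in 69.3% of multi-exon ones, whose coding sequences were longer (medians of 879 and 1137 bases). Of the 29 fallen members, 16 had a GGACT, as did 4 of the 5 risen ones.

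Shares called differed along the exon classes, with intronless genes at one end. Genes that are spliced but carry their whole coding sequence in 1 exon, 258 in number, leaned the opposite way, with 17.8% higher and 5.81% lower and a median log2 fold change of 0.18. In 1572 genes with both single-exon and spliced transcripts, 4.26% were higher and 4.01% lower. Classes of 2 to 4, 5 to 9 and 10 or more exons had 4.03%, 4.30% and 3.08% lower and 9.69%, 6.55% and 6.28% higher. Intronless genes were the 1 class of these 6 with more falls than rises, and no test was made between classes.

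**Figure D4:**
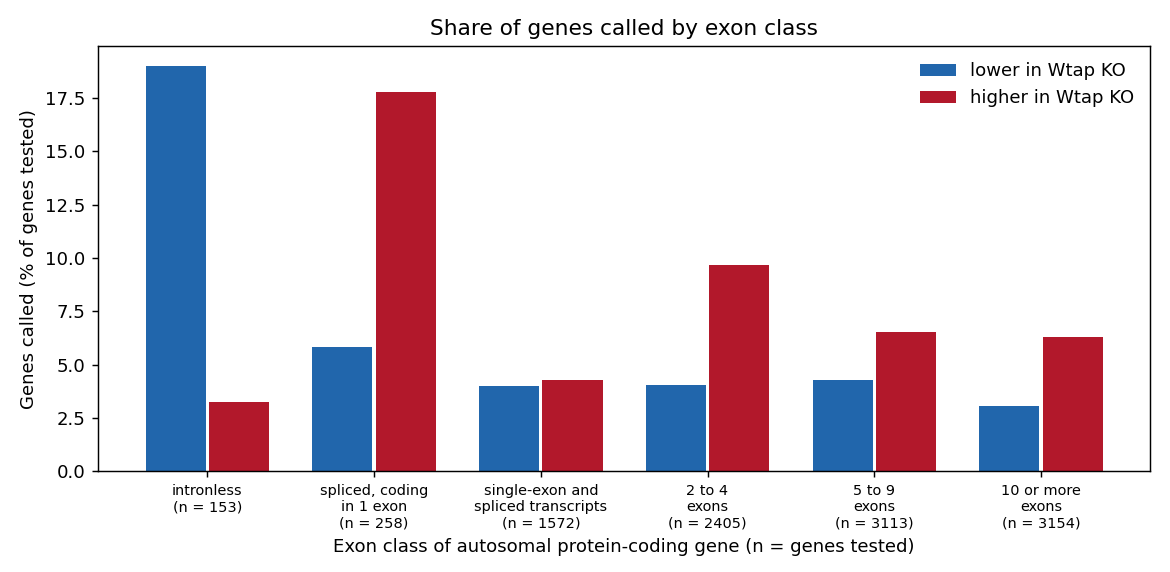
Percent of tested genes called lower or higher in Wtap KO (y axis, bars from 0) by exon class of autosomal coding genes (x axis, n = genes tested). Intronless genes stand at 19.0% lower and 3.27% higher, and spliced genes with the coding sequence in 1 exon at 5.81% lower and 17.8% higher.

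Several members have a spliced relative that encodes a similar protein, which allows both to be read side by side. For 16 such pairs, put together with the results known, the 5 called members were Cstf2t, Wdr5b, Sap18b, Bmyc and Rap2b, and in 4 of these pairs the relative was not called. Over all genes tested 9.23% were called in either direction, so an uncalled relative is the usual case. Wdr5b was at 1.45, 1.49 and 1.34 TPM in WT and 0.653, 0.528 and 0.530 TPM in Wtap KO (-1.37 ± 0.20 on the log2 scale, edgeR adjusted p = 0.00585). Its relative Wdr5, a subunit of histone methyltransferase complexes, was at 13.2, 10.3 and 10.9 TPM in WT and 12.6, 14.9 and 16.2 TPM in Wtap KO (0.17 on the log2 scale, adjusted p = 0.405). Rap2b fell, whereas Rap2a was at 3.87, 3.60 and 4.58 TPM in WT and 3.99, 3.72 and 5.43 TPM in Wtap KO. In both pairs the spliced gene's groups overlapped. An exon of Wdr5b overlaps Fam162a on the other strand (-1.07 on the log2 scale, adjusted p = 0.185). Cstf2t, a testis-type variant of the cleavage factor Cstf2, was at 9.35, 9.49 and 8.30 TPM in WT and 7.02, 6.35 and 7.12 TPM in Wtap KO (-0.46 on the log2 scale, edgeR adjusted p = 0.0313, up to 0.167 without WT 2 or any 1 of the Wtap KO libraries), and Cstf2 was not called (-0.26). Bmyc, with 38.3% of its words its own, rose, and Myc had a log2 fold change of 0.42 (adjusted p = 0.169). Of the 11 uncalled members only Rhob had a called relative, Rhoa, which was lower (log2 fold change -0.41). The difference within each pair was not tested.

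Sap18b and its spliced parent Sap18 moved together. Sap18 belongs to the periphery of the exon junction complex. Sap18b was at 158, 144 and 135 TPM in WT and 104, 118 and 102 TPM in Wtap KO (-0.48 ± 0.11 on the log2 scale, edgeR adjusted p = 0.0326, up to 0.144 without WT 2 or any 1 of the Wtap KO libraries). Sap18 was at 177, 135 and 124 TPM in WT and 103, 114 and 113 TPM in Wtap KO (-0.47 on the log2 scale, adjusted p = 0.0360). Since 1.19% of the words of Sap18b are its own, the reads of the pair cannot be told apart. Sap18 was the 1 called gene among 13 of the exon junction complex and its periphery (median log2 fold change -0.15), beside 9.23% of all genes tested called in either direction. In the TREX and NXF1 export list of 21 genes, Nxt1 was higher, at 25.3, 24.0 and 27.0 TPM in WT against 68.1, 72.0 and 79.7 TPM in Wtap KO, and Nxt2 and Zc3h11a were lower. The intronless member of that list, Alyref2, was not called (0.34 on the log2 scale, adjusted p = 0.489).

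Intronless genes that the selection left out gave a mixed picture. They are set beside 3.49% lower and 5.75% higher of all genes tested. Of 36 intronless autosomal coding genes with Hist symbols, 29 were tested, with 5 lower and none higher (17.2% lower, median log2 fold change -0.30). Intronless coding genes on the X and Y chromosomes numbered 13, with 3 higher and 1 lower. The 3 Wtap KO libraries differ in sex-linked RNA, as given above, and its part in these calls was not tested.

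The share of members called lower exceeded that of all genes in each of the 18 settings run, whatever test, scaling or set of libraries was used. It ranged from 8.44% to 24.2% in members and from 0.54% to 6.96% in all genes tested.

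**Figure D5:**
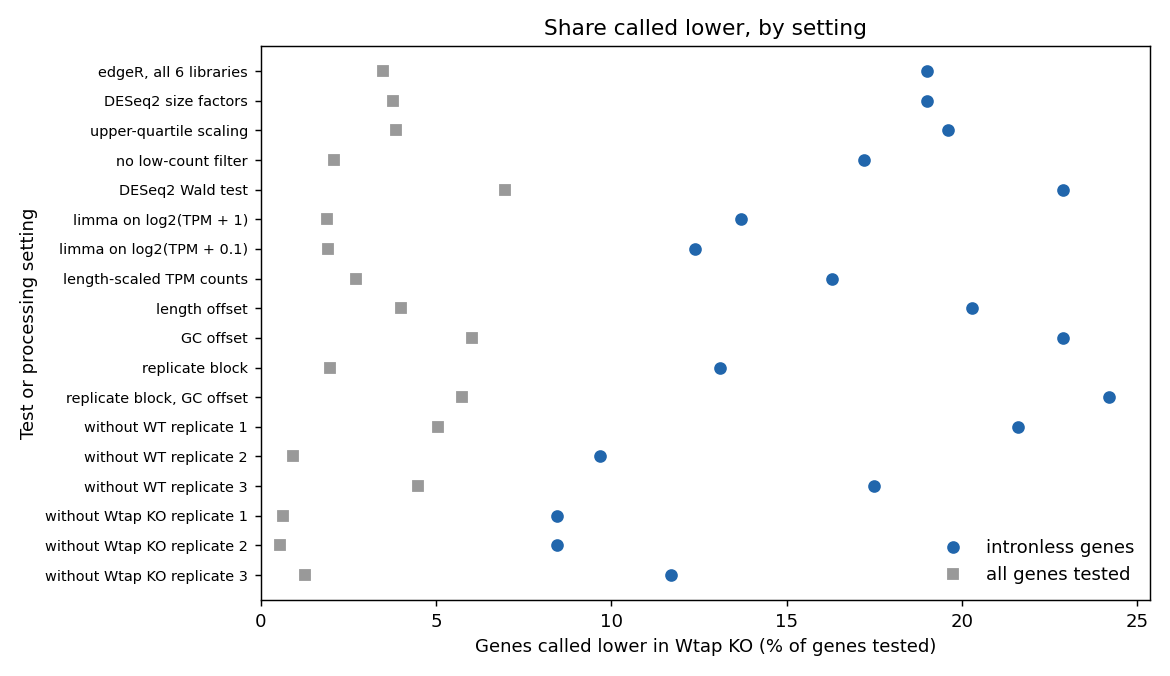
Percent of tested genes called lower in Wtap KO (x axis) for intronless genes (circles) and for all genes tested (squares) under each of 18 tests, scalings or library sets (y axis). In every row the circle lies to the right of the square, with the lowest circle at 8.44%.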

How the data were processed

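RNA abundance was measured in 3 WT and 3 Wtap KO libraries, grouped by sample title. The authors deposited 1 table per library with estimated counts, TPM values and lengths for 142647 transcripts. The submitters' processing notes name kallisto 0.44.0, DESeq2 and the build GRCm38. kallisto splits reads shared by several transcripts, so values of retrocopies depend on that split. Strand setting and annotation release: not given in the sources used here. Identifiers without version were matched to GENCODE vM21 (99.15% matched), and the estimated counts of a gene's transcripts were added and rounded. For some members, among them Rps12-ps3, Gm6793, Gm10330, Gm10073 and Ado, the deposited length differs from the span of the vM21 exon. Exon number, GC content and unique words are those of the vM21 transcripts, so for such members they describe another model than the counts. Depth was 32363139 to 44039467 estimated counts per library, which limits low members most.

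The test was edgeR's quasi-likelihood F-test (version 4.0.16 in R 4.3.3, with TMM, filterByExpr and genotype only) over all genes, adjusted by the Benjamini-Hochberg method at 0.05. The code was tested on simulated data. Alternatives used DESeq2 1.42.0, limma 3.58.1 on log2(TPM + 1) or log2(TPM + 0.1), other scalings, offsets for length and GC content, a replicate block and each library left out. Length and GC content are means over a gene's transcripts weighted by TPM. Unique words are 31-base words of a gene's transcripts found in no other gene's transcripts. Named members are the 10 largest called falls and rises with at least 3 TPM in the higher group, the 6 most abundant, the 2 most abundant not yet named in each role group with at least 3 tested members, and those at the level limit. Other names were added after their values were seen. The members and lists were chosen with earlier results of these data known. No list was tested as a whole. Replicate numbers were not taken to pair libraries.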

Additional observations from a re-analysis of the deposited data

How the results depend on the processing

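The median log2 fold change of intronless genes stayed below 0 and their calls leaned to falls under every setting run. Calls among members numbered 22 with limma on log2(TPM + 0.1), 14 for members of at least 5 TPM, 18 for members with no exon overlap and 14 for those inside no other gene, the last 3 from fewer genes tested. With 1 library left out they ranged from 13 to 39. Calls over all genes were 2581 with the DESeq2 Wald test, where members gave 9 higher and 35 lower, and 361 to 2282 with 1 library left out. The members' median was -0.0242 and -0.0241 with limma on log2(TPM + 1) and log2(TPM + 0.1), -0.114 with the GC offset, -0.124 for members of at least 5 TPM, -0.122 for those with 80% or more unique words, and -0.130 to -0.0634 with 1 library left out. The median difference to similar multi-exon genes was -0.121 with limma on log2(TPM + 0.1), -0.168 for members with 80% or more unique words, -0.149 and -0.0749 with narrower and wider windows, -0.142 with level added, -0.491 against spliced genes with the coding sequence in 1 exon (6 members only) and -0.132 to -0.0635 with 1 library left out. Against all genes with a spliced transcript, a comparison chosen after seeing the data, it was -0.104. The cause was not tested where no construction is named. Same-numbered libraries did not all deviate together (r = -0.32, 0.09 and 0.16), so the numbers were not taken as pairs, and not every library correlated best with its own number. With a replicate block 1061 genes and 23 members (3 higher, 20 lower) were called, and with the block and a GC offset 40 members, with a median of -0.114. Reversals of sign touched members that were not called. With 1 library left out log2 fold changes ran from -0.203 to 0.0324 for Rps12-ps3, from -0.162 to 0.0368 for Rpl10-ps3, from -1.88 to 0.956 for Gm10181, from -0.194 to 0.210 for S1pr4, from -0.0687 to 0.0254 for Mgat2, from -0.224 to 0.131 for Ier2, from -0.376 to 0.0126 for Fbxl14, from -0.0342 to 0.214 for Gm11808 and from -0.134 to 0.166 for 0610012G03Rik. The length offset gave 0.0111 for Rps12-ps3, 0.0915 for Gm10181 and -0.00854 for 0610012G03Rik. The GC offset gave -0.00360 for Gm11808, -0.0838 for 0610012G03Rik and -0.114 for Pcbp1, and with the block -0.000322, -0.0781 and -0.112, and 0.145 for Gm10181. The block alone gave 0.214 for Gm10181 and 0.0272 for S1pr4. limma at pseudocounts of 1 and 0.1 gave 0.0788 and 0.0805 for S1pr4 and 0.0376 and 0.0392 for Mgat2. DESeq2 size factors and the DESeq2 Wald test gave -0.000712 and -0.000719 for 0610012G03Rik. Depth limits low members: 51 had a mean under 2 TPM.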
